A study of Drosophila melanogaster with 24 samples.

Results

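The 5 serotonin receptor genes of Drosophila melanogaster, 5-HT1A, 5-HT1B, 5-HT2A, 5-HT2B and 5-HT7, were followed through development of the antenna in flies with and without an allele of rotund (rn), which encodes a zinc-finger transcription factor. They are 5 of the 13409 genes matched in the count table, and were taken by name. The transcript that stands for each gene was chosen by its total count over all 24 libraries, as the highest of the gene, and no difference between groups entered the choice. Messenger RNA was sequenced at 4 stages, from the imaginal disc of wandering larvae, from pupal antennae 8 h or 40 h after pupation, and from adult antennae. The 3 genotypes were rn[tot]/rn[tot] (the mutant), rn[tot] over the TM6 balancer chromosome (the heterozygote) and +/+ at rn (wild type), and all of them carried w[1118]. There were 12 groups, 1 for each genotype at each stage, with 2 libraries in each. No label says that the paired libraries of a group are from separate animals, and the p-values measure only the spread between these samples, which may be technical. The heterozygote differs from wild type by TM6 and by stock as well as by its rn allele, and no label says that either rn[tot] stock shares more with wild type than w[1118], so that allele and stock cannot be told apart. The larval and 8 h samples differ in tissue as well as in stage, and these cannot be told apart.

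Serotonin is made from tryptophan by a hydroxylase and a decarboxylase, loaded into vesicles, released, and taken back up by a plasma membrane transporter. All fly serotonin receptors are coupled to G proteins: 5-HT1A and 5-HT1B lower cyclic AMP, 5-HT2A and 5-HT2B act through phospholipase C and calcium, and 5-HT7 raises cyclic AMP. In the fly they are known for roles in feeding, sleep, aggression and learning, and serotonin is known to modulate the olfactory pathway.

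Levels are given in CPM, which are counts divided by TMM-adjusted library size, and log2 changes are given ± SE. A gene was called when its edgeR quasi-likelihood p, adjusted over all 10993 genes tested, was under 0.05. All 5 receptors passed the filter on low counts, through their counts at 40 h and in the adult. Library totals ran from 17441575 to 33353768 counts. The libraries of a group differed by more than sampling noise in all 12 groups, with a chi-squared per degree of freedom of 3.98 to 282. It was largest in wild type at 8 h and next largest in the larval heterozygote, at 164. rn itself had 74.7 and 68.7 CPM in the mutant larva, 48.1 and 51.1 CPM in the heterozygote and 42.7 and 43.7 CPM in wild type. At 8 h rn was lower in the mutant, at 48.8 and 44.6 CPM against 127 and 79.3 CPM in wild type, a log2 change of -1.14 ± 0.26 (edgeR adjusted p = 0.0269). Orco, the coreceptor of the odorant receptors, had 1512 CPM or more in every adult library and 2.88 CPM or less in every larval one. The labels do not give the lesion of rn[tot], so the level of rn mRNA does not check the genotype labels.

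5-HT2A was nearly lost from the adult antenna of both stocks that carry rn[tot]. Its level was 1.99 and 1.34 CPM in the mutant and 0.833 and 0.757 CPM in the heterozygote, against 65.4 and 60.5 CPM in wild type. The 4 libraries with rn[tot] all lay far below both wild type libraries. In the mutant the log2 change from wild type was -5.23 ± 0.62 (edgeR adjusted p = 0.000125), with 43 counts against 1678 in the 2 libraries of each group. In the heterozygote it was -6.29 ± 0.67 (adjusted p = 6.44e-05), with 24 counts. Scaled by library size, the pooled level was 37.7-fold lower in the mutant than in wild type (95% exact interval from counting error only, 27.9 to 52.3). In the heterozygote it was 79.4-fold lower (53.2 to 124). By log2 change 5-HT2A ranked 23 from the lowest of the 10993 tested genes in the mutant and 6 from the lowest in the heterozygote. It was the only receptor called in either adult comparison, in which 3.08% of all genes were called for the mutant and 1.82% for the heterozygote, and these comparisons share the wild type libraries. Between mutant and heterozygote the adult log2 change was 1.06 ± 0.67 (adjusted p = 1), while the mutant libraries lay above those of the heterozygote. In these bulk samples, fewer cells that express a gene and less RNA per cell cannot be told apart.

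**Figure D1:**
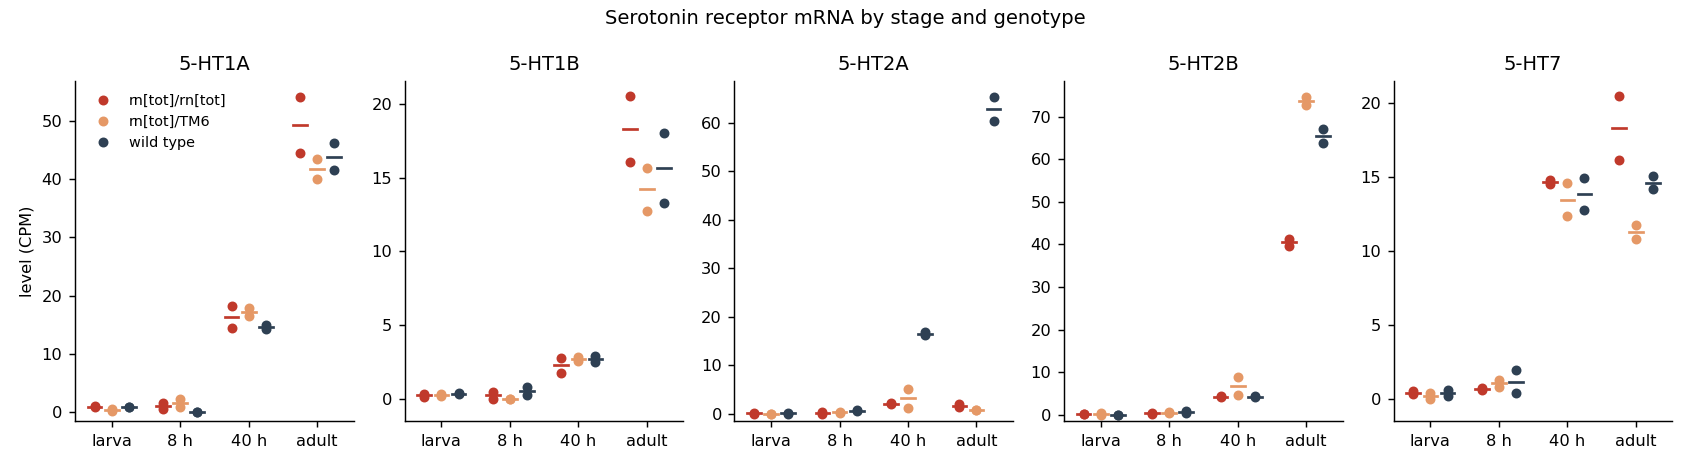
Level in CPM (vertical axes, linear, scaled separately for each gene) of the 5 receptors at each stage (horizontal axes), with a point per library and a short line at the mean of the 2 libraries, for the mutant, the heterozygote and wild type from left to right. In the adult, 5-HT2A lies at 1.99 CPM or lower in all 4 libraries with rn[tot], against 60.5 CPM or more in wild type, and 5-HT2B lies at 39.6 and 41.3 CPM in the mutant, below the other genotypes.

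A lower level was called at 40 h after pupation in the mutant as well. There 5-HT2A had 2.22 and 1.92 CPM in the mutant and 5.09 and 1.21 CPM in the heterozygote, against 16.8 and 16.3 CPM in wild type. No library with rn[tot] overlapped the wild type range, while the mutant libraries lay between the 2 heterozygote ones. The log2 change of the mutant from wild type was -2.99 ± 0.59 (edgeR adjusted p = 0.0149), and 5-HT2A was the only receptor called where 1.29% of all genes were. That call held in 5 of 10 alternative fits, and the adjusted p ran from 4.84e-05 to 0.244 over them. Leaving out either library of either group, or summing all transcripts, took it over the threshold. The heterozygote differed from wild type by -2.41 ± 0.57 (adjusted p = 0.0608) and was not called in a comparison where 1.02% of genes were. Without its first library, which had 5.09 CPM, the change was -3.76 (adjusted p = 0.0179). That library also had a summed level of 9 muscle markers of 1331 CPM, against 357 CPM in the other heterozygote library, and its part in the result was not tested. The mutant differed from the heterozygote by -0.58 ± 0.61 at 40 h (adjusted p = 1), and by 0.77 without that library.

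From 40 h to the adult, the tests of 5-HT2A gave a different result in each genotype. In wild type it rose by 1.93 ± 0.52 on the log2 scale (edgeR adjusted p = 0.00535). In the mutant the change was -0.31 ± 0.63 (adjusted p = 0.704), and both stages lay between 1.34 and 2.22 CPM. In the heterozygote it fell by 1.95 ± 0.65 (adjusted p = 0.0189). This fall rests on the first 40 h library, without which it was -0.60 (adjusted p = 0.524), and it was lost in 4 of 10 alternative fits. The test of the difference itself did not pass, in comparisons where 0.746% of genes were called for the mutant effect and 0.218% for that of the heterozygote. The effect of the mutant was 2.24 ± 0.81 log2 units more negative in the adult than at 40 h (adjusted p = 0.384), and that of the heterozygote 3.88 ± 0.83 more negative (adjusted p = 0.083). For the heterozygote the difference was called in 3 of 14 alternative fits, with adjusted p between 0.00115 and 0.522.

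All 5 annotated transcripts of 5-HT2A in the table were low in both stocks. Transcripts of a gene share exons, so these values are not independent of each other. In the adult the least counted in wild type, 5-HT2A-RD, had 1.23 and 0.866 CPM in the mutant and 0.417 and 0.505 CPM in the heterozygote, against 43.1 and 38.7 CPM in wild type. The transcript used, 5-HT2A-RB, is 3722 bases long. Summed over transcripts, the mean adult level was 6.74 CPM in the mutant and 3.47 CPM in the heterozygote, against 269.7 CPM in wild type. For each of the 5, the adult libraries with rn[tot] lay below both wild type libraries. How reads shared between transcripts were counted is unknown. These values therefore cannot show whether 1 transcript set the difference, and the sums may count shared reads repeatedly.

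5-HT2A lies on chromosome arm 3R (4612870 to 4633304, plus strand, BDGP6), 2.64 Mb from rn on the same arm. Among the 11 other tested genes within 100 kb, edgeR called 0 in any of the 12 comparisons between genotypes. In these comparisons 0.0819% to 3.94% of all genes were called, so 0 of 11 is near those shares and is no result about the region. At an unadjusted p under 0.05 there were 0 to 3 in a comparison, among them 2 in the adult mutant and 1 in the adult heterozygote against wild type. In the adult the gene nearest to it, CG9775, 4.7 kb away, had 158 and 157 CPM in the mutant and 164 and 145 CPM in the heterozygote, against 158 and 171 CPM in wild type. spartin, 21.5 kb away, had 34.3 and 40.1 CPM in the mutant and 40.1 and 41.0 CPM in the heterozygote, against 17.4 and 18.6 CPM in wild type. Its log2 change was 1.05 ± 0.31 in the mutant (adjusted p = 0.083) and 1.17 ± 0.31 in the heterozygote (adjusted p = 0.0653). As 0 of these neighbours were called in either direction, their calls cannot show whether the change extends beyond 5-HT2A.

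**Figure D2:**
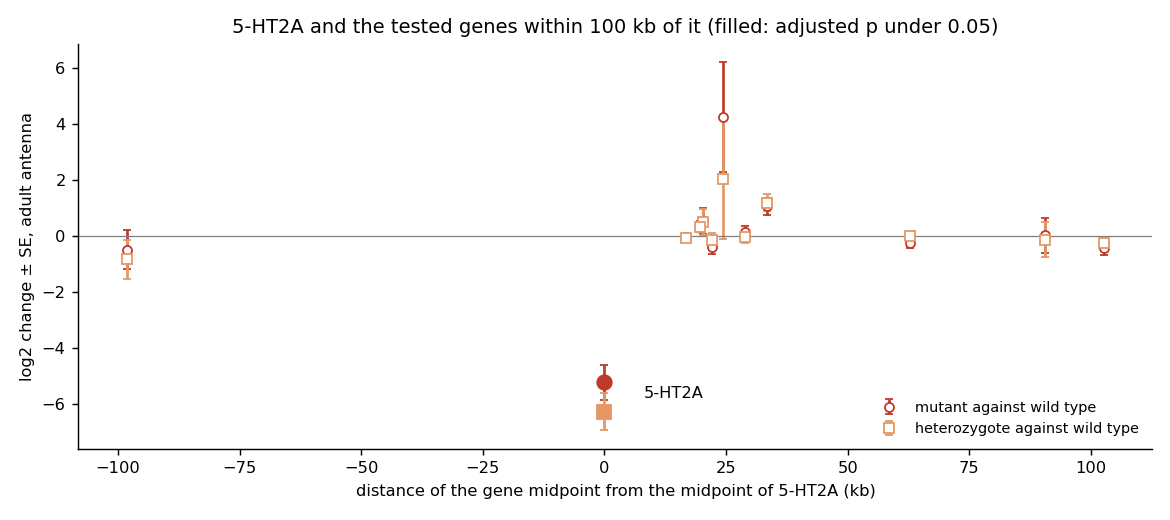
Adult log2 change ± SE from wild type (vertical axis) of 5-HT2A and the 11 other tested genes within 100 kb, by distance between gene midpoints in kb (horizontal axis), with circles for the mutant and squares for the heterozygote and filled symbols for an adjusted p under 0.05. The filled symbols are those of 5-HT2A, at -5.23 and -6.29, and the highest point is rpk, which had at most 0.23 CPM in any adult library.

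5-HT2B, the other receptor of the phospholipase C branch, was lower in the adult mutant without passing the test. It had 39.6 and 41.3 CPM in the mutant and 74.7 and 72.8 CPM in the heterozygote, against 67.3 and 64.0 CPM in wild type. The mutant libraries lay below all 4 others. The log2 change was -0.87 ± 0.31 from the heterozygote (edgeR adjusted p = 0.76) and -0.70 ± 0.31 from wild type (adjusted p = 0.38). Fitted on the adult libraries alone, both differences were called, at -0.85 (adjusted p = 0.00316) and -0.68 (adjusted p = 0.00247). The remaining 9 alternative fits of each difference did not call it. At 40 h 5-HT2B had 4.25 and 4.04 CPM in the mutant and 4.55 and 8.92 CPM in the heterozygote, against 4.30 and 4.17 CPM in wild type. It had the largest fitted rise of the 5 from 40 h to the adult in each genotype. This rise was 3.28 ± 0.36 in the mutant, 3.44 ± 0.35 in the heterozygote and 3.95 ± 0.37 in wild type (largest edgeR adjusted p = 1.31e-06). In the mutant 5-HT1B rose by 3.01 ± 0.50, within these errors, and the order was not tested. 5-HT2B lies on 3R (8578205 to 8629996, plus strand), 1.27 Mb from rn. Of the 32 other tested genes within 100 kb, edgeR called 1 in the adult, CG8032, 34.1 kb away. Its log2 change in the mutant was -2.485 ± 0.20 from wild type (adjusted p = 1.77e-06) and -1.725 ± 0.20 from the heterozygote (adjusted p = 0.000182). In these comparisons 3.08% and 0.291% of all genes were called, and its part in the level of 5-HT2B was not tested. At 40 h it was called for the mutant against wild type, and at 8 h 3 others for the heterozygote.

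5-HT1A and 5-HT1B, the receptors that lower cyclic AMP, rose from 8 h to 40 h and again to the adult in all 3 genotypes. In the adult 5-HT1A had 54.1 and 44.5 CPM in the mutant and 40.0 and 43.4 CPM in the heterozygote, against 41.6 and 46.1 CPM in wild type. 5-HT1B had 16.1 and 20.5 CPM in the mutant and 12.8 and 15.6 CPM in the heterozygote, against 13.3 and 18.0 CPM in wild type. For both genes the mutant and wild type libraries overlapped, while the mutant libraries lay above those of the heterozygote. From 40 h to the adult 5-HT1A rose by 1.59 ± 0.33 in the mutant, 1.28 ± 0.33 in the heterozygote and 1.59 ± 0.33 in wild type. 5-HT1B rose by 3.01 ± 0.50, 2.39 ± 0.49 and 2.53 ± 0.49 in the same genotypes (largest edgeR adjusted p over both genes, 0.0037). Over the 3 genotype comparisons at 40 h and in the adult, the log2 changes of the pair ran from -0.26 to 0.37 and none was called. Both genes lie on 2R, 5-HT1A from 19067155 to 19121958 on the plus strand and 5-HT1B from 19022325 to 19032642 on the minus strand.

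5-HT7, which raises cyclic AMP, had no called change after 40 h. In the mutant it had 20.5 and 16.1 CPM in the adult, against 14.8 and 14.5 CPM at 40 h. In the heterozygote it had 11.7 and 10.8 CPM in the adult, against 12.3 and 14.6 CPM at 40 h. In wild type it had 14.2 and 15.1 CPM in the adult, against 15.0 and 12.8 CPM at 40 h, and these overlapped. The log2 change from 40 h to the adult was 0.32 ± 0.44 in the mutant, -0.26 ± 0.44 in the heterozygote and 0.08 ± 0.44 in wild type (smallest edgeR adjusted p = 0.562). In wild type it turned to -0.033 without the second 40 h library. The adult mutant libraries lay above those of both other genotypes, but the log2 changes of 0.70 ± 0.44 from the heterozygote and 0.32 ± 0.43 from wild type were not called (adjusted p = 1 and 0.963). 5-HT7 lies on 3R (30968236 to 31016875, minus strand), 23.66 Mb from rn.

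**Figure D3:**
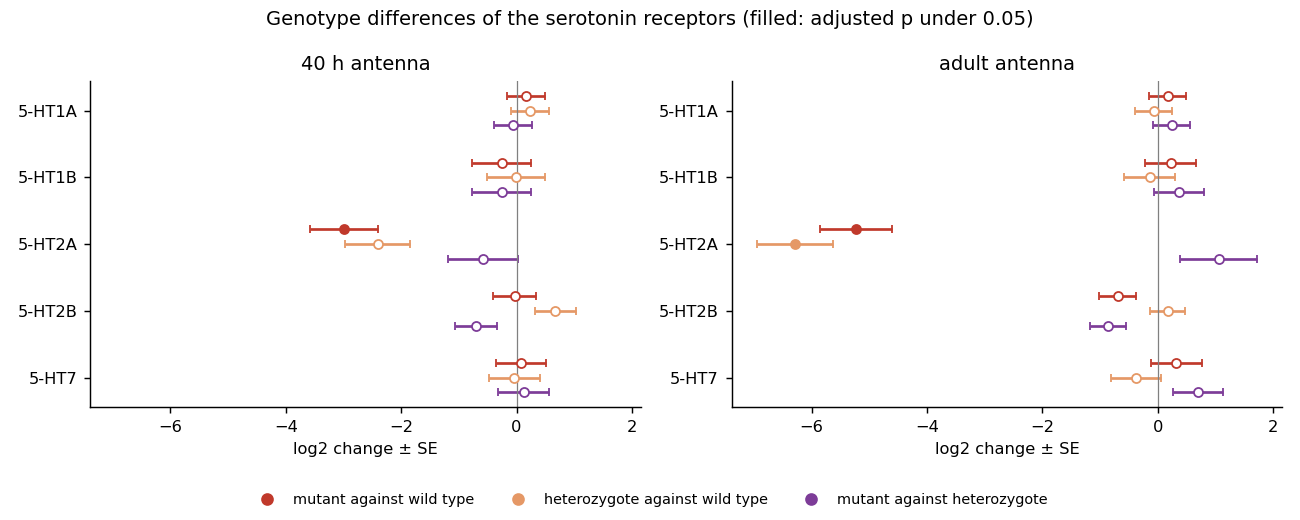
Log2 change ± SE (horizontal axes) of the 5 receptors (rows) at 40 h and in the adult for the mutant against wild type, the heterozygote against wild type and the mutant against the heterozygote, with filled symbols for an adjusted p under 0.05. The filled symbols are those of 5-HT2A, at -2.99 for the mutant at 40 h and at -5.23 and -6.29 for the mutant and the heterozygote in the adult.

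Of the 3 steps between stages, that from 8 h to 40 h was the one in which all 5 receptors were called higher in each genotype. There 53.9% of all genes were called in the mutant, 53.7% in the heterozygote and 54.8% in wild type, and 28.4%, 28.2% and 26.9% were called higher. In the mutant the log2 changes ran from 3.32 for 5-HT1B to 4.49 for 5-HT7. In the heterozygote they ran from 3.51 for 5-HT1A to 7.97 for 5-HT1B and in wild type from 2.19 for 5-HT1B to 10.4 for 5-HT1A, and both upper values are set against groups at 0 counts at 8 h, so that they depend on the prior count. In wild type the fitted changes of 5-HT1B and 5-HT2B were larger from 40 h to the adult, at 2.53 and 3.95, than from 8 h to 40 h, at 2.19 and 2.94, a difference that was not tested. In the step to the adult 3 receptors were called higher in the mutant (5-HT1A, 5-HT1B and 5-HT2B), where 55.0% of genes were called in either direction. In the heterozygote the same 3 were called higher and 5-HT2A lower, where 54.7% were called in either direction. In wild type 4 were called higher, all but 5-HT7, where 54.6% were called in either direction. Pan-neuronal markers rose over the same steps: of 10 such genes 10, 10 and 9 were called higher from 8 h to 40 h in the mutant, the heterozygote and wild type, and 8 in each from 40 h to the adult. Their summed level was 3696 and 3752 CPM in the adult mutant, against 318 and 286 CPM in the mutant at 8 h, and its part in the rise of the receptors was not tested.

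Per kilobase of transcript, 5-HT2A had the highest mean level of the 5 in the wild type adult antenna and the lowest in the adults of both stocks with rn[tot]. These levels rest on 1 transcript a gene. It kept 4808 of 4808 counts for 5-HT1A, but 1512 of 3860 for 5-HT1B and 2227 of 9472 for 5-HT2A. For 5-HT2B it kept 5369 of 10373 and for 5-HT7 2151 of 3611. The orders and shares below depend on that choice, and orders with summed transcripts can differ. In wild type adults the order of the mean levels was 5-HT2A (16.9 ± 0.93 CPM per kb, SD, n = 2), 5-HT2B (10.4 ± 0.37), 5-HT1A (8.74 ± 0.64), 5-HT1B (3.89 ± 0.83) and 5-HT7 (3.26 ± 0.14), where only the last pair lay within their spread. In the mutant the order was 5-HT1A (9.83 ± 1.35 CPM per kb), 5-HT2B (6.39 ± 0.19), 5-HT1B (4.55 ± 0.78), 5-HT7 (4.08 ± 0.68) and 5-HT2A (0.448 ± 0.12). The mutant values of 5-HT1B and 5-HT7 lay within their spread. In the heterozygote it was 5-HT2B (11.7 ± 0.21 CPM per kb), 5-HT1A (8.31 ± 0.48), 5-HT1B (3.53 ± 0.50), 5-HT7 (2.51 ± 0.15) and 5-HT2A (0.214 ± 0.015). The share of 5-HT2A in the summed level of the 5 was 2.05% and 1.47% in the mutant and 0.868% and 0.763% in the heterozygote, against 40.9% and 37.5% in wild type. The summed level was 25.3 ± 1.19 CPM per kb in the mutant and 26.2 ± 0.61 in the heterozygote, against 43.2 ± 0.30 in wild type. Without 5-HT2A it was 24.9 ± 1.07 CPM per kb in the mutant and 26.0 ± 0.62 in the heterozygote, against 26.3 ± 1.23 in wild type, and the libraries of the 3 genotypes overlapped.

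**Figure D4:**
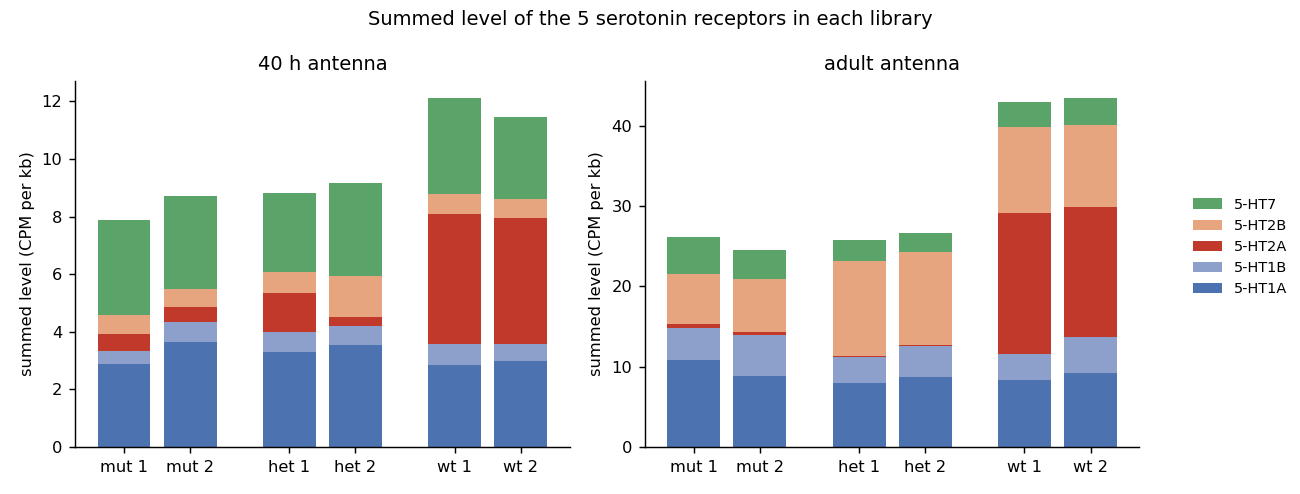
Summed level of the 5 receptors in CPM per kb of transcript (vertical axes, from 0) in each of the 2 libraries of the mutant (mut), the heterozygote (het) and wild type (wt), at 40 h and in the adult, stacked by gene. The segment of 5-HT2A takes 40.9% and 37.5% of the adult wild type bars and 2.05% or less of the adult bars of both other genotypes.

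In the larval disc and at 8 h the receptors were close to absent, with no group mean above 1.52 CPM, and the tests rest on few counts. At 8 h 5-HT1A had 16 and 4 counts in the mutant and 24 and 10 counts in the heterozygote, against 0 and 0 counts in wild type. It was called higher in the mutant (edgeR adjusted p = 0.0135) and in the heterozygote (adjusted p = 0.00468). A count of 0 over both wild type libraries allows up to 3 counts. Against that limit the pooled level was 6.49-fold higher in the mutant and 8.94-fold higher in the heterozygote. These ratios leave out the error of the counts above 0, so they are not lower bounds. Fitted on the 8 h libraries alone, neither was called (adjusted p = 0.578 and 0.491). The call in the mutant was also lost without the first library of wild type (adjusted p = 0.0853) or of the mutant (adjusted p = 0.156). 5-HT1B had 0 and 0 counts in the heterozygote at 8 h, against 2 and 9 counts in wild type, and was called lower (adjusted p = 0.0403). Against the limit of 3 counts the ratio was 4.65, which is no lower bound either. The call was lost without any 1 of these 4 libraries. These were 1 of 5 receptors called in the mutant, where 3.36% of genes were, and 2 of 5 in the heterozygote, where 3.94% were. All 24 counts of 5-HT1A were even numbers, so the reads behind them may not be independent of each other. From larva to 8 h edgeR called 0 of 5 receptors in the mutant (26.7% of all genes, 0 at an unadjusted p under 0.05), 3 in the heterozygote (29.6%) and 2 in wild type (39.3%), all with 34 counts or fewer a group. In the heterozygote 5-HT1A and 5-HT7 were higher at 8 h and 5-HT1B was lower, and in wild type 5-HT2B was higher and 5-HT1A lower. In the heterozygote these calls were lost in 3 of 10 alternative fits for 5-HT1A, 4 of 10 for 5-HT7 and 3 of 9 for 5-HT1B, with adjusted p of up to 0.244, and in wild type in 1 of 9 for 5-HT2B (adjusted p = 0.0568 without the second 8 h library) and 0 of 10 for 5-HT1A. The share of genes whose difference from wild type changed between larva and 8 h was 0.282% for the mutant and 0.555% for the heterozygote, and between 8 h and 40 h it was 0.391% and 0.346%, with 5-HT1A called for the heterozygote in both steps. In the larva 0 receptors were called by edgeR in any genotype comparison, where 1.54% of genes were called for the mutant and 1.86% for the heterozygote against wild type, and 0.164% for the mutant against the heterozygote. DESeq2 called 0 of them as well, and 0, 2 and 1 had an unadjusted p under 0.05 in these 3 comparisons.

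Between mutant and heterozygote edgeR and DESeq2 each called 0 of the 20 receptor tests over the 4 stages. The share of all genes called was 0.091% at 8 h, 0.0819% at 40 h and 0.291% in the adult. At an unadjusted p under 0.05 there were 3, 5-HT1A in the larva, 5-HT1B at 8 h and 5-HT2B in the adult.

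The genes of serotonin supply had no call between genotypes, in comparisons where 0.0819% to 3.94% of all genes were called, and 0 of 7 is near those shares and is no result about the list. Of 8 such genes 7 were tested, and edgeR called 0 of 28 tests over the 4 stages for the mutant against wild type, for the mutant against the heterozygote and for the heterozygote against wild type. At an unadjusted p under 0.05 there were 1, 1 and 7, and DESeq2 called 1, 1 and 2, all of these calls in the larva or at 8 h. In the adult their median log2 change was -0.18 for the mutant and 0.08 for the heterozygote against wild type, where the median over all genes was within 0.01 of 0. SerT, the plasma membrane serotonin transporter, had 244 and 221 CPM in the adult mutant and 273 and 324 CPM in the heterozygote, against 367 and 293 CPM in wild type. Vmat, the vesicular monoamine transporter, had 182 and 182 CPM in the mutant and 226 and 187 CPM in the heterozygote, against 312 and 262 CPM in wild type. Both rose from 40 h to the adult in every genotype, SerT by 6.04 ± 0.40 in the mutant, 7.16 ± 0.42 in the heterozygote and 6.76 ± 0.41 in wild type (largest edgeR adjusted p = 1.69e-09), and Vmat by 8.16 ± 0.66, 8.17 ± 0.65 and 8.26 ± 0.64 in the same order. Of the 7 genes 4 were called higher and 1 lower in this step in each genotype, where 55.0% of all genes were called in the mutant, 54.7% in the heterozygote and 54.6% in wild type. The one called lower was Pcd, a pterin carbinolamine dehydratase, by 1.40 ± 0.45 in the mutant, 1.25 ± 0.45 in the heterozygote and 1.46 ± 0.45 in wild type (largest edgeR adjusted p = 0.0265). Ddc, the decarboxylase that makes serotonin and dopamine, rose as well, by 4.46 ± 0.70, 4.54 ± 0.70 and 4.24 ± 0.70 in the same order. Trhn, the neuronal tryptophan hydroxylase, was not tested. It had 0 and 2 counts in the adult mutant and 8 and 2 counts in the heterozygote, against 3 and 9 counts in wild type.

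Most of the other aminergic and muscarinic receptors rose from 8 h to 40 h as well. Of 15 genes 14 were tested, and 13 were called higher from 8 h to 40 h in each genotype, where 28.4% of all genes were in the mutant, 28.2% in the heterozygote and 26.9% in wild type. In the heterozygote 1 was called lower in this step. From 40 h to the adult 7 were called higher in the mutant, 8 in the heterozygote and 8 in wild type. In that step 55.0%, 54.7% and 54.6% of all genes were called in either direction. Between genotypes edgeR called 1, Oct-TyrR, a receptor for octopamine and tyramine. It was higher in the heterozygote than in wild type at 8 h by 2.11 ± 0.52 (edgeR adjusted p = 0.0349), where 3.94% of all genes were called. Of 30 genes for G proteins and their effectors, edgeR called 0 in a genotype comparison at 40 h or in the adult. There 0 to 3 had an unadjusted p under 0.05 and DESeq2 called 0 or 1. In these comparisons 0.0819% to 3.08% of all genes were called, so 0 of 30 is near those shares and is no result about the list. In the 8 h antenna 3 of the 30 were called lower in the mutant than in wild type, where 3.36% of all genes were called in either direction: Pkc53E, a protein kinase C, by 4.34 ± 0.44 on the log2 scale (adjusted p = 3.83e-05), Ac3, an adenylyl cyclase, and krz, a non-visual arrestin. In the heterozygote 4 were called lower than in wild type, where 3.94% of all genes were called: Pkc53E, by 2.27 ± 0.36 (adjusted p = 0.00255), krz, Galphaq, a G protein alpha subunit, and Itpr, the inositol trisphosphate receptor. The list summed to 2640 and 2496 CPM in the mutant at 8 h and 2276 and 2432 CPM in the heterozygote, against 4690 and 2658 CPM in wild type, so that the first wild type library stood apart, and its part in these calls was not tested. Ac3 was also lower in the mutant larva than in the heterozygote, by 1.42 ± 0.27 (adjusted p = 0.0431), and than in wild type, by 1.45 ± 0.27 (adjusted p = 0.00693).

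Of the neuron markers, 1 was called lower in the adult where 5-HT2A was, in the mutant, and it belongs to the olfactory list. Against wild type, 3.08% of all genes were called in the adult mutant and 1.82% in the adult heterozygote. Between mutant and heterozygote the adult share was 0.291%. At 40 h these shares were 1.29%, 1.02% and 0.0819%. In lists of this size 0 calls is near these shares and is no result about a list. In the adult the 10 pan-neuronal markers summed to 3696 and 3752 CPM in the mutant and 3538 and 3363 CPM in the heterozygote, against 3675 and 3748 CPM in wild type, and edgeR and DESeq2 called 0 of them at 40 h or in the adult, with 0 or 1 at an unadjusted p under 0.05. The 6 markers of Johnston's organ neurons, the hearing cells of the second antennal segment, summed to 432 and 427 CPM in the mutant and 447 and 451 CPM in the heterozygote, against 522 and 569.6 CPM in wild type, with 0 called by either tool and 0 or 1 at an unadjusted p under 0.05. The 6 markers of olfactory neurons summed to 2020 and 2438 CPM in the mutant and 2917 and 2744 CPM in the heterozygote, against 3373 and 3263 CPM in wild type. Of these Ir25a, an ionotropic coreceptor, was called lower in the adult mutant than in wild type, by 1.08 ± 0.28 (adjusted p = 0.048). The olfactory and Johnston's organ sums were both lower in the mutant and the heterozygote than in wild type, without overlap of libraries. The part of either sum in the level of 5-HT2A was not tested. Of 8 glial markers wrapper was called higher in the adult mutant than in wild type, by 2.62 ± 0.46 (adjusted p = 0.00348), and of 6 blood cell markers NimC1 was, by 2.61 ± 0.52 (adjusted p = 0.00826). The median log2 change in that comparison was 0.03 for the glial list and 0.39 for the blood cell list. Muscle markers summed to 895 and 291 CPM in the adult mutant and 312 and 302 CPM in the heterozygote, against 398 and 217 CPM in wild type. Fat body markers summed to 599.8 and 164 CPM, 186 and 177 CPM, and 249 and 131 CPM in the same order. The first adult mutant library was high in both lists. 5-HT2A had 1.99 CPM in that library and 1.34 CPM in the second, and the part of these sums in its level was not tested.

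The genes most like each receptor, by Pearson correlation of log2 CPM over the 12 group means, were nearest for 5-HT2B and farthest for 5-HT2A. For 5-HT2B they were PIP5K59B, a phosphatidylinositol phosphate kinase, CG34342 and Eaat2, an excitatory amino acid transporter, all with r of 0.995. For 5-HT7 they were sif (0.994), PCNA2 (0.994) and VhaM9.7-a (0.992), for 5-HT1A CG31051 (0.993), CG9691 (0.991) and Tango5 (0.989), and for 5-HT1B CG31688 (0.991), ClC-a (0.99) and ps (0.99). For 5-HT2A the nearest were CG32669 (0.915), Cyp12d1-d (0.914) and CG11158 (0.913). The points share libraries and the common rise over the stages, and these values are given as a description.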

How the data were processed

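RNA was extracted with a column kit and sequenced as stranded mRNA libraries, per the labels' protocols. The deposited values used here are raw counts per FlyBase transcript in 24 libraries. CASAVA 1.8, BWA 0.7.12 and DESeq2 (no version) are named in the submitters' processing notes. The genome build, the counter, its strand setting and its treatment of shared reads are unknown: they were not given in the sources used here, so reads of overlapping genes cannot be told apart. The authors' normalized table was not used.

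The Ensembl BDGP6 annotation assigned 29393 of 29872 transcripts, with 98.69% of all counts, to 13409 genes, and 479 were left out. The transcript with the highest total represented each gene and kept 45.5% of the matched counts. No other gene touches an exon of the 5 transcripts used in that annotation. Of the counts from 1 to 20, 75.6% were even, so intervals and floors cover counting error only and are too narrow.

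edgeR 4.0.16 (R 4.3.3) was run with TMM, filterByExpr (minimum count 10) and 1 quasi-likelihood fit of 12 groups over 24 libraries, two-sided, with Benjamini-Hochberg adjustment over 10993 genes at 0.05 (12 residual degrees of freedom, common dispersion 0.0521, a coefficient of variation of 22.8%). The code was tested on simulated data. Alternatives were summed transcripts, RLE scaling, no filter, DESeq2 1.42.0, the stages compared alone, a replicate block and leaving out each library. The named genes were the receptors, the defining members and up to 4 called members of each list, and the 3 genes most like each receptor. CG9775, spartin, rpk and CG8032 were named after their values were seen. Trh, AANAT1 and Cg25C were matched under the symbols Trhn, speck and Col4a1. The receptors, lists and tests were chosen with earlier results of these data known.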

Additional observations from a re-analysis of the deposited data

Results flagged for a closer look

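5-HT1A stood out at 8 h, where a test of the difference called the effect of the heterozygote genotype different from that at the stages before and after it, and the mutant had changes in the same directions that were not called. Relative to wild type, the fitted log2 change of the heterozygote was 8.45 ± 1.44 higher at 8 h than in the larva (edgeR adjusted p = 0.0177), and that at 40 h was -6.89 ± 1.37 relative to that at 8 h (adjusted p = 0.0425). The same values for the mutant were 6.57 ± 1.55 (adjusted p = 0.12) and -6.45 ± 1.45 (adjusted p = 0.0846), and both genotypes are set against the same wild type libraries. The counts behind the heterozygote values were 24 and 10 in the heterozygote at 8 h, against 0 and 0 in wild type, so that the fitted sizes depend on the prior count. In the larva the counts were 2 and 6 in the heterozygote, against 10 and 12 in wild type. This test of the heterozygote was added after the levels of 5-HT2A had been seen. The calls were lost in 4 and 7 of 14 alternative fits. The libraries of wild type at 8 h also differed most from each other, and their summed neuron markers were 684 and 325 CPM. The part of this difference in the result was not tested.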

How the results depend on the processing

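Over 50 tested values of single receptors and 513 alternative fits of them, 461 kept the direction and the side of the threshold, 42 lost the call, 8 gained it and 2 changed sign. The sign changes were both in values that were not called: 5-HT2A in the mutant against the heterozygote at 40 h ran from -1.28 to 0.77 with single libraries left out, at 0.77 without the first heterozygote library, and 5-HT7 in wild type from 40 h to the adult ran from -0.033 without the second 40 h library to 0.19 without the first. The adult calls of 5-HT2A held in all 10 alternatives, with log2 changes of -5.55 to -4.97 in the mutant and -6.36 to -6.22 in the heterozygote against wild type. With only the libraries of the stage compared, the number of receptor calls was 1 for the mutant against the heterozygote (0 with all libraries) and 1 for the heterozygote against wild type (3 with all libraries). For the difference of the mutant effect between successive stages, edgeR called 0 of 15 tests, DESeq2 called 2 and the fit with a replicate block called 1, and leaving out single libraries gave 0 to 2. For the heterozygote effect there were 2 calls, 1 with only the stages compared and 0 to 4 with single libraries left out. The cause was not tested. The labels give replicates 1 and 2 in every group but do not say that a number marks a shared batch. Deviations of same-numbered libraries correlated by -0.14 to 0.09. With 2 libraries a group this cannot decide whether same-numbered libraries shared a batch. With the sum of all transcripts the adult levels of 4 receptors moved by more than the spread between libraries, while 5-HT1A has a single transcript in the table. Depth limits the larval and 8 h values, where a receptor had 34 counts or fewer over the 2 libraries of a group. The adult differences of 5-HT2B were called only with the adult libraries alone.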
